A study of Mus musculus with 14 samples.

Results

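Glycolysis and the response to low oxygen were followed across Crebbp genotypes through 31 genes that carry glucose to lactate or answer to hypoxia. The genes were listed by function, and each was read from the brightest probe set (the group of oligonucleotides for a transcript) that is annotated to that gene alone, by the mean over 14 arrays. Of the 31 genes, 24 were bright enough to enter the test across 10225 genes, 3 were dim (Egln3, Vegfa and Ak4), Gapdh was read from control probe sets alone, and 3 (Gpi1, Eno1 and Bnip3l) had no single-gene probe set in the annotation used here and were not analysed. The 28 genes with a reading stand against 18193 genes with a single-gene probe set in the whole series.

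Gene expression was measured on 14 microarrays, 1 per mouse, in germinal centre B cells sorted from spleen as B220+CD95+PNA+. All mice were C57BL/6x129Sv, 8 to 12 weeks old, carried Cg1-Cre, were immunised with sheep red blood cells (SRBC) on days 0 and 5 and were killed on day 12. The 4 wild-type mice (WT, 1 male) were Crebbp+/+, the 5 heterozygous mice (HET, 2 males) were Crebbpfl/+ and the 5 knockout mice (KO, 3 males) were Crebbpfl/fl, so the controls carried Cre without a floxed allele. Cg1-Cre is active mainly in B cells that respond to antigen, and cells that escaped recombination would remain in the sort.

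Crebbp, the targeted gene, had a log2 signal of 12.42, 12.40, 12.36 and 12.44 in the WT arrays, 12.25, 12.10, 12.15, 12.43 and 12.40 in the HET arrays and 12.12, 12.05, 11.71, 12.15 and 12.18 in the KO arrays on its brightest probe set. All KO arrays lay below all WT arrays, and HET arrays overlapped both. The KO change was -0.41 (SE 0.09, limma adjusted p = 0.0372). Among sort markers, all 6 B cell genes and all 9 germinal centre genes with a probe set were above the median of the array, while 0 of 5 erythroid genes, 1 of 5 platelet genes, 2 of 6 T cell genes, 3 of 5 dendritic cell genes and 5 of 7 plasma cell genes were. Over the tested genes the array of KO 3 was the least like the rest, with a median correlation of 0.979, where the other 13 had 0.984 to 0.990.

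Glycolysis splits glucose into pyruvate and yields ATP without oxygen, and lactate dehydrogenase regenerates the cofactor that lets it continue. In low oxygen the transcription factor HIF, whose alpha subunit is otherwise marked for destruction by the prolyl hydroxylases of the EGLN family, raises the transcription of glucose transporters, glycolytic enzymes and genes that restrain mitochondria. CREB-binding protein is one of the coactivators that bind the alpha subunit of HIF. Germinal centres contain poorly oxygenated areas, and their B cells divide fast and raise glucose uptake when they are selected.

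Most promoters of these genes carry the core of the hypoxia response element, the HIF binding motif. RefSeq (GRCm38.p6) gave a promoter, from 250 bases before to 50 bases after the start of transcription, for 29 of the 31 genes. ACGTG was present on either strand in at least 1 start of 23 of the 29 (79.3%), against 21.8% of 27025 genes and 30.0% of the 8358 tested genes with a promoter. Of 32851 single promoters of that length 19.6% held it, but that share counts starts and not genes. A gene with several starts has more chances to hold the letters, and the number of starts was not matched. CACGTG, an E-box that contains the core on both strands, was found in 6 of 29 (20.7%) against 8.09% of all genes and 12.1% of the tested genes. TGACGTCA, the cAMP response element bound by CREB, was found in 2 of 29 (6.90%), Ldha and Mif, against 2.03% of all genes and 3.85% of the tested genes. A match describes these letters and does not show binding. The 250 bases before the start are given for 4 genes chosen after their values were seen: Egln1 and Bnip3, with the largest upward KO estimates, Pfkp, with the largest downward estimate, and Ldha, which has 5 copies of the core, counting each strand, and a KO estimate near 0. Capitals mark ACGTG on either strand, with the full CACGTG where the copies overlap, and Ldha also holds TGACGTCA in its last bases, in lower case.
Egln1, chr8:124949255-124949504, minus strand: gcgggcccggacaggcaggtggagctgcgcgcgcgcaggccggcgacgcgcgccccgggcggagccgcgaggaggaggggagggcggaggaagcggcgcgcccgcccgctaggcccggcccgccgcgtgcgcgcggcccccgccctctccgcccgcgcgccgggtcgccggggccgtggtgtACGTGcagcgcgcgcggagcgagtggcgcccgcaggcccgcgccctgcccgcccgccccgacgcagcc
Bnip3, chr7:138909507-138909756, minus strand: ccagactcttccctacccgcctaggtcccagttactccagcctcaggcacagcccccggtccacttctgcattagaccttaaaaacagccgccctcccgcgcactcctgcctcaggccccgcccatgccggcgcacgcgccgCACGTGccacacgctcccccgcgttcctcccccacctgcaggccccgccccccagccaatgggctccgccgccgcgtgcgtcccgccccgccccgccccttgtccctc
Ldha, chr7:46845554-46845803, plus strand: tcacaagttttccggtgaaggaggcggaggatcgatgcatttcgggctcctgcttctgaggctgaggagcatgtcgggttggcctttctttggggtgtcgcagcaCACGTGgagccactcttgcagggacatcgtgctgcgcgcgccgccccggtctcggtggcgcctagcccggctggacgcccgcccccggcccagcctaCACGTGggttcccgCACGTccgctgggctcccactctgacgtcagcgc
Pfkp, chr13:6648772-6649021, minus strand: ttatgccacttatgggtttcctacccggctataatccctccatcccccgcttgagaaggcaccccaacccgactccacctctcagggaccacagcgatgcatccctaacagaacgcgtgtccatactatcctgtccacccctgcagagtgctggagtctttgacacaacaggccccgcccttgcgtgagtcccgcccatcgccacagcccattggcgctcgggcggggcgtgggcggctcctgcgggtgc

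The Egln1 window held 1 copy of ACGTG and that of Bnip3 held 2, both within 1 CACGTG. That of Ldha held 5, of which 4 lay within 2 CACGTG, and that of Pfkp held 0.

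In the comparison of KO with WT, none of the 24 tested genes passed the threshold, an adjusted p of 0.05 from limma over 10225 genes with sex held as a covariate. Over all genes 2.44% passed. At an unadjusted p under 0.05, 4 of 24 (16.7%) were found, Egln1, Pfkp, Slc2a1 and Bnip3, against 13.1% of all genes. The median log2 change of the 24 was 0.02, with 15 above and 9 below 0, and the median over all genes was -0.00 with 49.0% above 0. The median size of the change, regardless of sign, was 0.09 for these genes and 0.08 for all genes. In the plot of changes and intervals, the intervals of most genes cross 0 in both comparisons.

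**Figure D1:**
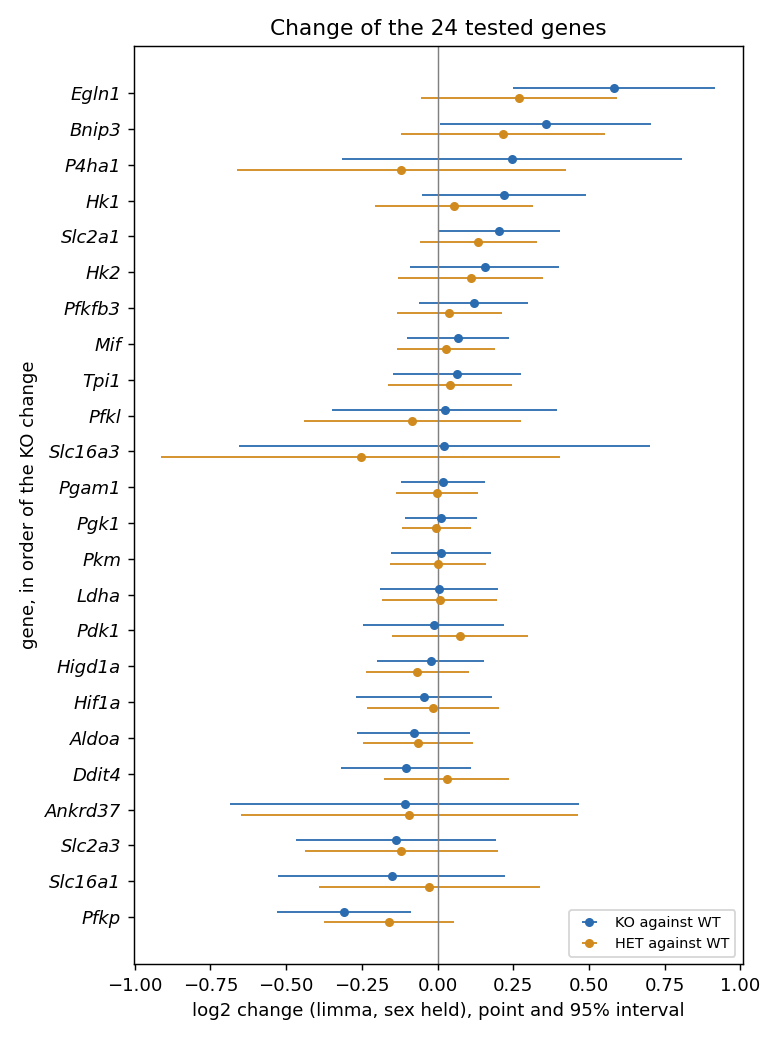
Log2 change of the 24 tested genes on the horizontal axis, KO against WT in blue and HET against WT in orange, as limma estimates with 95% intervals and sex held. Genes are ordered by the KO change, from Egln1 at 0.58 to Pfkp at -0.31, and only Egln1, Bnip3, Slc2a1 and Pfkp have a KO interval that does not reach 0.

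HET against WT also gave 0 of 24, where 0 of all 10225 genes (0%) passed. At an unadjusted p under 0.05 the counts were 0 of the 24 and 280 of all genes (2.74%). KO against HET gave 0 of 24 against 0.264% of all genes, and 1 gene (Egln1) at an unadjusted p under 0.05 against 6.39% of all genes. A trend fitted over 0, 1 and 2 floxed alleles gave 1 of 24, Egln1, against 3.04% of all genes. These comparisons share arrays, so their results are not separate evidence.

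Egln1, the main prolyl hydroxylase that marks the HIF alpha subunit in the presence of oxygen and itself a HIF target, had the largest KO change of the group. Its log2 signal was 10.09, 10.17, 9.72 and 10.41 in the WT arrays. In the HET arrays it was 10.11, 10.43, 10.68, 10.45 and 10.20. In the KO arrays it was 10.50, 10.63, 10.75, 10.61 and 11.00. Every KO array lay above every WT array, and HET arrays overlapped both. Egln1 was the only one of the 24 genes with this separation, which 2.87% of all genes showed, and 0 of the 24 had every KO array below every WT array, against 3.65% of all genes.

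The Egln1 change was 0.58 in KO against WT (SE 0.15, 95% interval 0.25 to 0.92), with an adjusted p of 0.0730 by limma. HET against WT gave 0.27 (SE 0.15) and KO against HET 0.31 (SE 0.14, limma adjusted p = 0.773). Each floxed allele added 0.29 (SE 0.07), which passed the test with a limma adjusted p of 0.0499. The second Egln1 probe set gave 0.46 in KO against WT and 0.23 per floxed allele. Its limma adjusted p, 0.292 and 0.227, came from a separate fit over all bright probe sets instead of 1 per gene. In that fit the brightest Egln1 probe set had a limma adjusted p of 0.127 and 0.0882, so its trend was not called there. On the second probe set the KO and WT arrays overlapped. The trend call is at the threshold: it held in 3 of 14 fits that each left out 1 array (without WT 4, HET 3 or KO 1), over which its adjusted p ran from 0.0350 to 0.119. KO against WT passed without the sex covariate (limma adjusted p = 0.0367) and in 0 of 14 fits that left out 1 array, over which the estimate ran from 0.47 to 0.74.

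Hif1a, which encodes the oxygen-regulated HIF alpha subunit, gave no sign of a difference beyond its spread. Its mean log2 signal was 12.34 ± 0.08 (SD, n = 4) in WT, 12.34 ± 0.14 (SD, n = 5) in HET and 12.33 ± 0.21 (SD, n = 5) in KO. KO minus WT was -0.04 (SE 0.10, 95% interval -0.27 to 0.18), and 2 further probe sets bright enough for the fit gave 0.04 and -0.01. The lowest Hif1a array was KO 3 at 12.02 and the highest was KO 4 at 12.55. Egln3, a second prolyl hydroxylase induced by HIF, was below the brightness limit, with a mean of 5.32 ± 0.18 (SD, n = 4) in WT and 5.19 ± 0.26 (SD, n = 5) in KO and an estimate of -0.15 (SE 0.16).

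**Figure D2:**
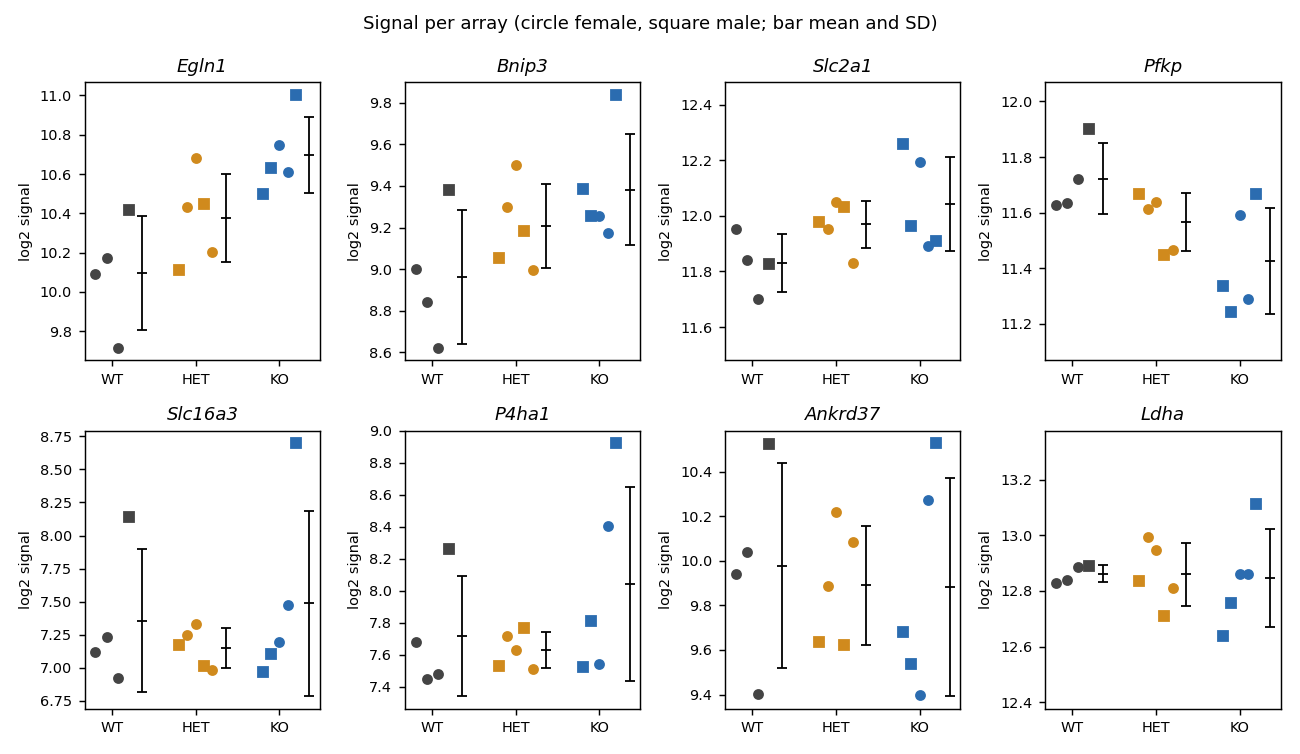
Log2 signal on the vertical axis for 8 genes, 1 point per array (circles female, squares male), with the mean and SD of each group as bars. KO arrays of Egln1 lie above all WT arrays, whereas in Slc16a3 and P4ha1 a few single arrays, WT 4 and KO 5 among them, stand far above the rest of their groups.

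Among the transporters, Slc2a1, the widely expressed glucose transporter GLUT1, had log2 signals of 11.95, 11.84, 11.70 and 11.83 in WT, 11.98, 11.95, 12.05, 12.03 and 11.83 in HET and 12.26, 11.96, 12.19, 11.89 and 11.91 in KO. KO 1 and KO 3 were highest, and the other 3 KO arrays lay within or just above the WT range. This came to a KO change of 0.20 (SE 0.09, 95% interval 0.01 to 0.40, limma adjusted p = 0.364), and its other probe sets gave 0.28 and 0.18. Slc2a3, the high-affinity glucose transporter GLUT3, gave -0.14 (SE 0.15). Its lowest value, 9.58, was in WT 4 and its highest, 10.40, in WT 1, so the WT arrays spanned the whole range.

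Slc16a1 and Slc16a3 encode the monocarboxylate carriers MCT1 and MCT4, which move lactate across the plasma membrane. Slc16a1 had an estimate of -0.15 (SE 0.17), and KO 3 alone stood low at 10.34, with the other 13 arrays between 10.96 and 11.37. Slc16a3, a HIF target, was 7.12, 7.23, 6.92 and 8.14 in WT, 7.17, 7.24, 7.33, 7.01 and 6.98 in HET and 6.96, 7.10, 7.19, 7.48 and 8.70 in KO. WT 4 and KO 5, both male, were far above the other 12 arrays, which did not exceed 7.48, and the other 4 males lay between 6.96 and 7.17. Its KO estimate was 0.02 with a wide SE of 0.32 (95% interval -0.66 to 0.70).

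Of the enzymes from glucose to triose phosphate, Pfkp, the platelet-type isoform of phosphofructokinase, had the largest change and it was downward. Its log2 signal was 11.63, 11.64, 11.72 and 11.90 in WT, 11.67, 11.61, 11.64, 11.45 and 11.47 in HET and 11.34, 11.24, 11.59, 11.29 and 11.67 in KO. KO 1, KO 2 and KO 4 lay below all WT and HET arrays, while KO 5 lay within the WT range. KO minus WT was -0.31 (SE 0.10, 95% interval -0.53 to -0.09) and the limma adjusted p was 0.163. The estimates of its other probe sets, -0.28 and -0.40, had the same sign. HET against WT gave -0.16 (SE 0.10) and the change per floxed allele was -0.15 (SE 0.05, limma adjusted p = 0.124).

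Pfkl, the liver-type isoform of the same enzyme, had a KO estimate of 0.02 (SE 0.17) on its brightest probe set and -0.04 and -0.22 on others. On the brightest, the highest arrays were KO 5 at 9.84 and WT 4 at 9.82, and the other 12 did not exceed 9.55. Hk1, a hexokinase, gave 0.22 (SE 0.13) on its brightest probe set and -0.04 on another, so the probe sets disagreed in sign. Hk2, the hexokinase that is induced by HIF and MYC, gave 0.16 (SE 0.11, 95% interval -0.09 to 0.40). Aldoa (aldolase A) gave -0.08 (SE 0.09) and Tpi1 (triose phosphate isomerase) 0.06 (SE 0.10). None of these 5 passed in any of the 4 comparisons.

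In the second part of the pathway, from Gapdh to Ldha, KO estimates were near 0. Pgk1 (phosphoglycerate kinase) averaged 12.91 ± 0.04 (SD, n = 4) in WT, 12.90 ± 0.05 (SD, n = 5) in HET and 12.92 ± 0.05 (SD, n = 5) in KO, with a KO change of 0.01 (95% interval -0.11 to 0.13). Its within-group SD, pooled over the groups with sex held, was 0.05, at the percentile 2.46 of all tested genes, where the median gene had 0.15. That percentile was not matched for brightness, and the genes read in this part had signals at the percentiles 96.9 to 99.8. Whether the spread was small for such signals was not tested. The 2 other bright Pgk1 probe sets, at lower mean signals of 11.47 and 10.79, varied more. Their ranges over the 14 arrays were 0.38 and 0.59 against 0.14, and their KO estimates were 0.04 and 0.07. Pgam1 (phosphoglycerate mutase) gave 0.02 (95% interval -0.12 to 0.16) and Pkm (pyruvate kinase) 0.01 (95% interval -0.15 to 0.17). Gapdh, on its 3 control probe sets, gave 0.02, 0.02 and 0.01.

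Ldha, the lactate dehydrogenase subunit that favours lactate production, was 12.83, 12.84, 12.88 and 12.89 in WT, 12.84, 12.99, 12.95, 12.71 and 12.81 in HET and 12.64, 12.76, 12.86, 12.86 and 13.11 in KO. The KO arrays held both the lowest value, in KO 1, and the highest, in KO 5. KO minus WT was 0.00 (SE 0.09, 95% interval -0.19 to 0.20). Of the genes that set the direction of flux, Pfkfb3, whose product makes the activator of phosphofructokinase, gave 0.12 (SE 0.08). Another bright Pfkfb3 probe set gave -0.10, the opposite sign. Pdk1, the kinase that holds pyruvate back from mitochondria, gave -0.01 (SE 0.11) on its brightest probe set and -0.09, 0.18 and 0.14 on the others.

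**Figure D3:**
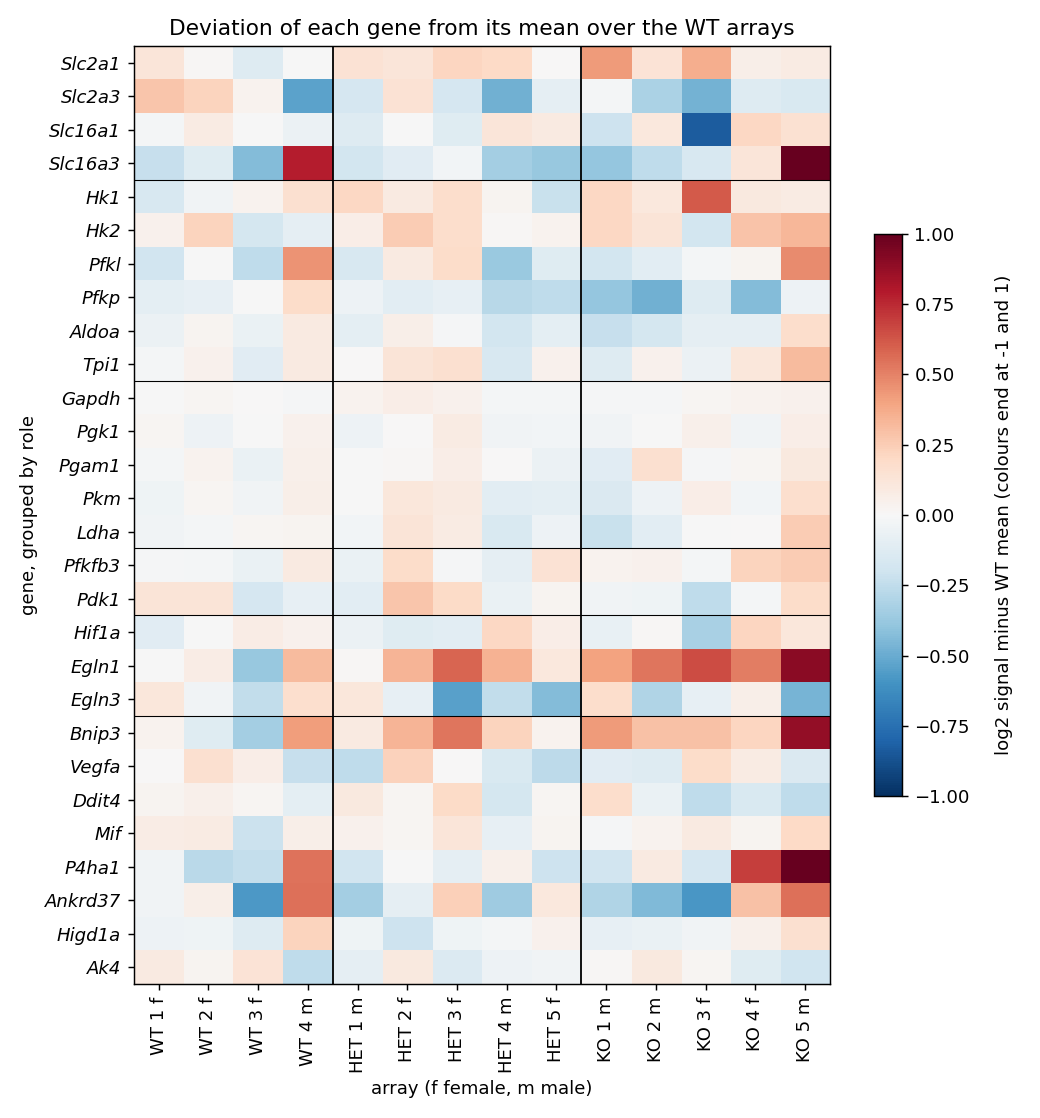
Deviation of the log2 signal from the gene's WT mean (colour, red above and blue below, ending at -1 and 1) for 28 genes in rows, grouped by role, and 14 arrays in columns. The KO 5 column is red in most rows, the Egln1 row is red in all KO arrays, and the rows from Gapdh to Ldha are mostly pale.

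Among the other hypoxia-induced genes, Bnip3, a mitophagy receptor of the outer mitochondrial membrane, was 9.00, 8.84, 8.62 and 9.38 in WT, 9.05, 9.30, 9.50, 9.18 and 8.99 in HET and 9.38, 9.26, 9.26, 9.17 and 9.84 in KO. All KO arrays lay above 3 of the 4 WT arrays, and WT 4 lay within the KO range. The KO change was 0.36 (SE 0.16, 95% interval 0.01 to 0.70) and the limma adjusted p was 0.366. HET against WT gave 0.22 (SE 0.16).

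P4ha1, a prolyl hydroxylase subunit that acts on collagen, was 7.68, 7.45, 7.48 and 8.26 in WT, 7.53, 7.72, 7.63, 7.77 and 7.51 in HET and 7.53, 7.81, 7.55, 8.41 and 8.92 in KO. KO 5, KO 4 and WT 4 were the 3 highest arrays, and the other 11 did not exceed 7.81. Its KO estimate was 0.25 with an SE of 0.26. Leaving out 1 array moved it between 0.05, without KO 4, and 0.46, without WT 4, and it was 0.71 without KO 3 and WT 4. Ankrd37, an ankyrin repeat gene and HIF target, had the same 3 arrays on top, with 10.53 in WT 4, 10.53 in KO 5 and 10.27 in KO 4. Its lowest arrays were KO 3 and WT 3, both at 9.40, and its KO estimate was -0.11 (SE 0.27). That estimate changed sign without WT 4 (0.19) or KO 3 (0.07), and was 0.51 without both. The pooled SD within groups was 0.51 for Slc16a3, 0.43 for Ankrd37 and 0.42 for P4ha1, at the percentiles 99.1, 98.1 and 97.9 of all tested genes.

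Of the remaining genes of this role, Ddit4, an inhibitor of mTORC1 signalling, gave -0.10 (SE 0.10), Mif, a cytokine gene, gave 0.07 (SE 0.08) and Higd1a, a mitochondrial protein gene, gave -0.02 (SE 0.08). Higd1a was highest in WT 4 at 12.01 and next highest in KO 5 at 11.94. The dim genes Vegfa, the vascular growth factor, and Ak4, a mitochondrial adenylate kinase, gave estimates of 0.06 (SE 0.09) and -0.00 (SE 0.09) in a fit without the brightness limit.

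The arrays differed from one another across these genes more than the genotypes did. Averaged over the 24 tested genes, the deviation from the WT mean was -0.02, 0.01, -0.13 and 0.14 in WT, -0.04, 0.07, 0.10, -0.07 and -0.04 in HET and -0.04, -0.02, -0.06, 0.09 and 0.31 in KO. The group means were 0.00 ± 0.11 (SD, n = 4), 0.00 ± 0.08 (SD, n = 5) and 0.06 ± 0.15 (SD, n = 5), and the 3 groups overlapped. The KO mean minus the WT mean was 0.06 over all arrays, -0.01 without KO 5, 0.01 without WT 3, 0.09 without KO 3 and 0.10 without WT 4. Over all tested genes the same average ran from -0.03 to 0.06 per array, a range kept narrow by processing that makes the distributions of arrays alike. Averages by role cover every gene with a reading, so they include Gapdh, Egln3, Vegfa and Ak4, which are not among the 24. By role, KO 5 stood at 0.36 for the transporters, carried by Slc16a3 at 1.34 (the others at 0.08, -0.15 and 0.15), 0.22 for upper glycolysis, 0.13 for lower glycolysis and 0.30 for the other hypoxia-induced genes, the highest array in each of these roles. The average of Hif1a, Egln1 and Egln3 ran from -0.18 to 0.18 in WT and from 0.08 to 0.26 in KO, and the groups overlapped. The KO values were carried by Egln1, at 0.40 to 0.90, with Hif1a at -0.33 to 0.21 and the dim Egln3 at -0.46 to 0.18.

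KO 5 was the highest of the 14 arrays for 13 of the 24 genes (54.2%), against 9.83% of all tested genes. These were Slc16a3, which was 1 of the 4 transporters, Hk2, Pfkl, Aldoa, Tpi1, Pkm, Ldha, Pfkfb3, Egln1, Bnip3, Mif, P4ha1 and Ankrd37. KO 5 was the lowest array for 0 of the 24. WT 3 was lowest for 5 of 24 (20.8%), against 10.3% of all genes. KO 3 was lowest for 6 of 24 (25%), against 16.9% of all genes. WT 4 was highest for 2 of 24 (8.33%), against 15.9% of all genes.

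**Figure D4:**
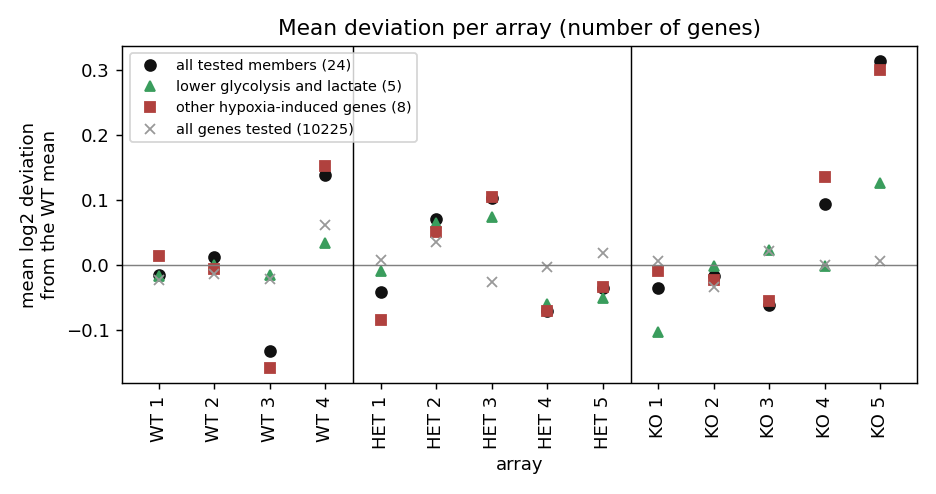
Mean log2 deviation from the WT mean per array, for the 24 tested genes (black circles), the lower glycolysis genes (green triangles), the other hypoxia-induced genes (red squares) and all 10225 tested genes (grey crosses). The triangles include Gapdh and the squares include Vegfa and Ak4, which are not among the 24. KO 5 stands highest at 0.31 for the 24 genes and WT 3 lowest at -0.13. The crosses stay between -0.03 and 0.06, a range kept narrow by processing that makes the distributions of arrays alike.

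Marker genes of other cells were read beside this pattern, as summed signals on the log2 scale. Of 9 macrophage and monocyte markers, 3 were above the brightness limit, and the sum ranged from 9.76 to 10.76 in WT, 9.70 to 11.25 in HET and 9.83 to 11.05 in KO. The values were 11.05 in KO 5, 10.51 in WT 4, 11.24 in HET 4 and 11.25 in HET 5. Of 7 neutrophil markers with a probe set, 2 were above the limit, and the sum ranged from 8.35 to 10.80 in WT, 8.28 to 10.83 in HET and 8.37 to 10.43 in KO. Of 5 naive follicular B cell markers with a probe set, 4 were above the limit, and the sum was lowest of all arrays in KO 5, 11.69, and next in KO 4, 11.84, with 12.25 to 12.34 in WT, 12.01 to 12.39 in HET and up to 12.27 in KO. The dendritic cell sum was 10.71 to 10.86 in WT, 10.55 to 10.83 in HET and 10.13 to 10.71 in KO, and the plasma cell sum was 13.89 to 13.95, 13.81 to 13.88 and 13.70 to 13.93. In KO against WT 1 of 5 tested plasma cell markers was called higher, and the other 4 estimates were below 0. Of 9 germinal centre markers 1 was called lower, beside 2.44% of all genes called in either direction. The germinal centre sum was 15.55 to 15.62 in WT, 15.52 to 15.61 in HET and 15.38 to 15.63 in KO. The T cell sum was 8.57 to 8.89, 8.38 to 9.02 and 8.38 to 9.40. The 6 measured B cell markers summed to 15.48 to 15.58 in WT and 15.39 to 15.45 in KO. The 3 prime minus 5 prime signal of Gapdh, a measure of RNA quality, was 0.59 to 0.72 in WT, 0.61 to 0.66 in HET and 0.59 to 0.74 in KO. It was 0.59 in KO 5, 0.74 in KO 3, 0.72 in WT 3 and 0.71 in WT 4. The same measure of beta actin was 0.54 to 0.69 in WT, 0.61 to 0.82 in HET and 0.54 to 0.82 in KO. There KO 5 had 0.56, KO 3 0.82, WT 3 0.69 and WT 4 0.67. Whether RNA quality had a part in the array pattern was not tested. The part of cell composition in the array pattern was not tested, and in sorted bulk RNA fewer cells of a type and less RNA per cell cannot be told apart.

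The rest of the pathway was read from 6 further lists of 94 genes, of which 66 were tested. In KO against WT 3 of the 66 passed, 2 higher and 1 lower, beside 2.44% of all genes. In HET against WT and in KO against HET 0 passed, beside 0% and 0.264% of all genes, and in the allele trend 4 passed, 2 higher and 2 lower, beside 3.04% of all genes. The median KO change of the 66 was -0.01, and all genes had -0.00. These lists were written with earlier results on these arrays known.

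Eno2, the neuronal enolase isoform and a HIF target in other cells, rose the most. Its log2 signal was 6.10, 6.45, 6.16 and 5.82 in WT, 7.04, 6.96, 6.85, 6.60 and 6.39 in HET and 7.68, 7.52, 7.70, 6.76 and 7.31 in KO. All KO arrays lay above all WT arrays and the HET arrays lay between, overlapping both. Its WT mean of 6.13 lay below the brightness limit of 6.43, so it entered the test through the HET and KO arrays. The KO change was 1.25 (SE 0.21, limma adjusted p = 0.00605), and it was called without the brightness limit too. HET against WT gave 0.63 (SE 0.20, limma adjusted p = 1.00). It was the 1 of 12 tested genes called in the list of other glycolytic isoenzymes. It lost the call in females only (limma adjusted p = 0.170) and when WT 4 was left out together with KO 3 (0.131) or with KO 5 (0.0522).

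Mxi1, a repressor of the MYC network that HIF induces, was 8.39, 8.28, 7.90 and 8.24 in WT, 8.65, 8.57, 8.55, 8.61 and 8.32 in HET and 9.10, 9.00, 9.32, 8.69 and 9.40 in KO. The KO arrays all lay above the WT arrays. On the brightest probe set the KO change was 0.85 (SE 0.14, 1.80-fold, limma adjusted p = 0.00581), but it was 0.08 on the other, so the rise belonged to 1 of its 2 probe sets. It was the 1 called gene among 18 tested in the list of other hypoxia-induced genes. It lost the call in females only (limma adjusted p = 0.143), with only the groups compared (0.0515) and without KO 3 and WT 4 (0.113).

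Tktl1, a transketolase-like gene of the pentose phosphate branch, fell. Its log2 signal was 7.69, 7.56, 7.65 and 7.53 in WT, 7.40, 7.29, 7.29, 7.00 and 7.49 in HET and 7.05, 6.30, 6.76, 5.90 and 6.02 in KO. All HET and KO arrays lay below all WT arrays. Its KO mean of 6.404 lay just below the brightness limit, so it entered the test through the WT and HET arrays. The KO change was -1.19 (SE 0.21, limma adjusted p = 0.00851), it was called without the brightness limit too, and its other probe set gave -0.88. It was the 1 called gene among 7 tested in its list, and it lost the call with only the groups compared (limma adjusted p = 0.0552).

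Slc2a6, a glucose transporter family member found on internal membranes, was 8.94, 8.94, 8.62 and 8.83 in WT, 8.71, 8.91, 8.78, 8.10 and 8.38 in HET and 7.96, 8.10, 8.59, 8.11 and 7.93 in KO. It passed in the allele trend alone, with -0.31 per floxed allele (SE 0.08, limma adjusted p = 0.0427), and that call held in 6 of 14 fits that left out 1 array. It was lost without WT 1, WT 2, WT 4, HET 3, KO 1, KO 2, KO 4 or KO 5, with the highest limma adjusted p, 0.158, without WT 4. KO against WT gave -0.61 (SE 0.15, limma adjusted p = 0.0591). It was the 1 called gene among 10 tested in the list of other regulators of glycolytic flux.

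**Figure D5:**
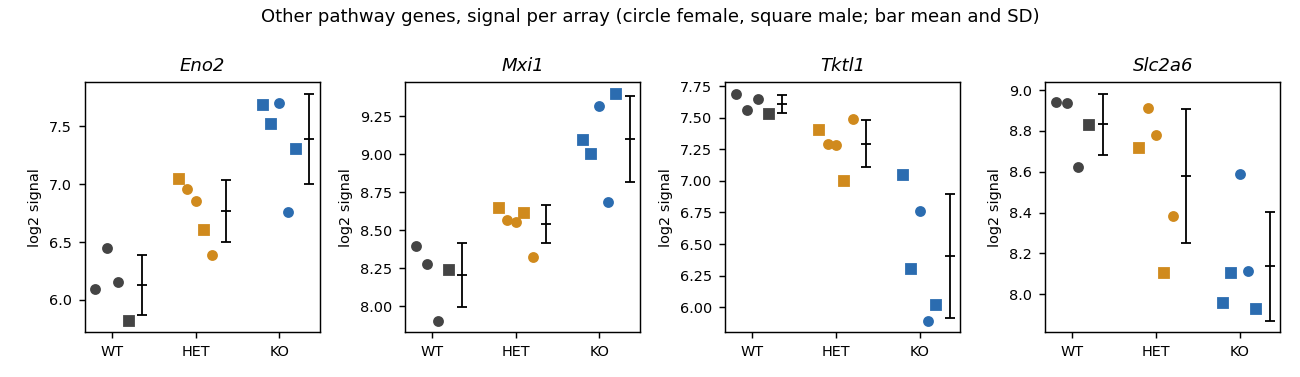
Log2 signal on the vertical axis for the 4 other pathway genes that passed in a comparison, 1 point per array (circles female, squares male), with mean and SD bars. Eno2 and Mxi1 are higher, and Tktl1 and Slc2a6 are lower, in every KO array than in every WT array. In Slc2a6 the margin is narrow, with KO 3 at 8.59 just below the lowest WT array at 8.62.

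The remaining lists gave 0 calls in all 4 comparisons. Among 11 tested genes of oxygen sensing, the smallest KO p-values belonged to Hif3a, another alpha subunit gene, with -0.19 (SE 0.09), and Egln2, the third prolyl hydroxylase gene, with -0.11 (SE 0.08). Among 8 tested genes of pyruvate entry into mitochondria, they belonged to Pdhb and Dlat, subunit genes of the pyruvate dehydrogenase complex, with 0.11 (SE 0.06) and 0.18 (SE 0.10).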

How the data were processed

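Affymetrix mouse expression arrays gave 1 value for each of 45101 probe sets in 14 sorted samples, each from a separate mouse per the labels. The values are log2 intensities as deposited by the authors. RMA is the tool in the submitters' processing notes (no version is given there), a method that corrects background, makes the distributions of arrays alike and combines the probes of a set. A change shared by most genes would therefore not appear. Per the labels, 25 ng of RNA was amplified and 3.75 ug of cDNA was labelled for each array.

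The members and lists were chosen with earlier results of these data known. The named genes are all 31 members, each other pathway gene called in a comparison, the 2 with the smallest p in a list with no call, and Crebbp. The annotation gave 1 gene for 34945 probe sets that are not controls and several for 932. Each gene was read from its brightest single-gene probe set and tested where its mean over 14 arrays exceeded 6.43, the median of probe sets that are not controls. limma 3.58.1 in R 4.3.3 (lmFit, eBayes) was fitted over all 14 arrays with group and sex, or the number of floxed alleles and sex, with Benjamini-Hochberg adjustment over 10225 genes and a threshold of 0.05. The fit was tested on simulated data. Any 2 arrays had at most 58 values in common, so none was a copy. Promoters are from RefSeq.

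Alternatives were the brightness limit, the mean of a gene's probe sets, repeated quantile normalisation, median centring, no sex covariate, females only, only the groups compared, eBayes with trend and robust set, weights per array, the replicate number as a block, and leaving out each array or KO 3 and WT 4. Leaving out WT 4 and KO 5, or WT 3 and KO 5, was added after seeing the data.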

Additional observations from a re-analysis of the deposited data

Results flagged for a closer look

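In 96 groups of 4 or 5 arrays checked for a sample far from the others, 4 were found, and chance alone marks about 1 in 20 groups. Hk1 was 9.0436 in KO 3, and the other KO arrays lay between 8.5123 and 8.643. Mif was 12.5116 in WT 3, where the other WT arrays lay between 12.7802 and 12.8058. Slc2a6 was 8.5913 in KO 3 against 7.9285 to 8.1135 in the other KO arrays. Mxi1 was 8.3213 in HET 5 against 8.5532 to 8.6479 in the other HET arrays.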

How the results depend on the processing

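KO against WT gave 0 called genes of the 24 tested, and 1 (Egln1) without the sex covariate, with limma's trend and robust options, with array weights, and without WT 4 and KO 5. Over all alternatives the adjusted p of Egln1 ran from 0.0367 to 0.233. The allele trend gave 1, and 0 with no brightness limit, with the limit at the 75th percentile, in females only, with array weights, with the replicate block, without KO 3 and WT 4, and without WT 3 and KO 5; leaving out 1 array gave 0 to 1. HET against WT gave 0 members in every fit run, and over all genes 6 with array weights and 1 with the replicate block. The mean KO change of the 24 was 0.0474, and 0.1837 without KO 3 and WT 4. Ankrd37 turned to 0.5131 in KO against WT and to 0.2565 per allele without KO 3 and WT 4. Of the other pathway genes, KO against WT gave 3, and 0 with the limit at the 75th percentile, where fewer genes were tested, 1 with only the groups compared and 5 with array weights. The called genes changed: Gbe1, picked out here after its values were seen, was called higher in females only, with array weights, without WT 4, without KO 3 and WT 4, and without WT 4 and KO 5. KO against HET gave 0, and 1 with the mean of probe sets or array weights, and 0 to 1 when 1 array was left out. Eno2 and Mxi1 lost their KO calls in females only (adjusted p = 0.170 and 0.143). The trend gave 4, and 0 with the limit at the 75th percentile, 1 in females only and 2 without KO 3 and WT 4. Except where the construction shows it, the cause was not tested. Over all genes, KO against WT gave 249 calls, 336 without the sex covariate, 98 with only the groups compared, 79 in females only, 117 with the limit at the 75th percentile and 75 without KO 3 and WT 4. Of the KO estimates of the 24 genes, 38 of 332 changed sign under these alternatives and 32 of 336 with 1 array left out. Arrays with the same replicate number correlated between -0.175 and 0.383 in their deviations from the group means (median 0.142 over 13 pairs, 9 of them over 0.1). Other pairs had a median of -0.056, with 13 of 52 over 0.1. The main fit did not take the number as a pairing, because not every same-number pair was over 0.1. Whether arrays with the same number shared a batch was not tested. With the replicate block, the Egln1 trend was 0.28 (adjusted p = 0.110). Groups had 4 or 5 arrays, the sex term was 1 term shared by all groups, and WT 4 was the only male WT mouse.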
